A study of Homo sapiens with 8 samples.

Results

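The genes described here are 10 that are known to follow the activity of ERK, the last kinase of the RAS pathway: the phosphatases DUSP4, DUSP5 and DUSP6, the inhibitors SPRY2, SPRY4 and SPRED1, and the transcription factors ETV4, ETV5, EGR1 and FOSL1. They were found by gene symbol in the probe annotation supplied with the data. Each had 1 probe set, so they are 10 of the 17687 genes named on the array. Total RNA was measured on 8 arrays from K562 and KBM5, human lines of chronic myeloid leukaemia that both come from blast crisis and carry the fusion kinase BCR-ABL1. Each line was left without exposure (control), given OR21 at 100 nM for 3 days, given imatinib (IM, an inhibitor of BCR-ABL1) at 1000 nM for 24 hours, or given OR21 for 3 days and then IM for 24 hours (the combination). OR21, or OR-2100, is named as a demethylating agent in the title of the series. For the combination the label gives no OR21 dose, and the one in the treatment protocol is given here. All cells grew in RPMI-1640 with fetal bovine serum, and the study asked which expression was particular to the combination.

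BCR-ABL1 binds adaptor proteins that switch on RAS, and RAS starts the chain of kinases RAF, MEK and ERK. Active ERK turns on transcription factors, among them EGR1 and the ETS factors ETV4 and ETV5, and it also turns on its own brakes. Of the brakes, the DUSP proteins remove phosphate from ERK and related kinases, while the Sprouty (SPRY) and SPRED proteins act upstream, between the receptors and RAF. FOSL1, also called FRA1, is a partner of JUN in the AP-1 factor, and its protein is known to be kept stable by sustained ERK activity.

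There was 1 array for each group and no measure of how repeats of a group vary. The p-values rest on how far the same drug's effect differed between array pairs, and precision is limited by how few arrays there were. Values are the authors' linear intensities, tested as log2(intensity) with limma. An effect of a drug within a line is the mean of 2 array pairs, with and without the other drug. Calls were made at an adjusted p under 0.05 (Benjamini-Hochberg over all 17687 genes). Background means at or below the 95th percentile of that array's 612 negative controls, a level of 161 to 263. When 1 side of a comparison was at background, the fold is a lower bound and is written "at least". No fold is printed when both sides were, and "not exact" marks a side with some of its arrays above background and some not. The median intensity of an array was 77.8 to 83.3, and 5874 to 7083 genes were above background.

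The lines differed in lineage markers. The sums of the erythroid and of the granulocytic and monocytic markers moved with IM, but not every marker followed its sum. All 7 measured erythroid markers (of 9 listed), GATA1, KLF1, HBE1, HBZ, ALAS2, TFRC and EPOR, were above background on at least 1 K562 array. In KBM5 only TFRC was. Their summed intensity in K562 was 103502 in the control and 266532 after OR21, against 679179 after IM and 733980 after the combination. HBZ, an embryonic globin, made up most of this, at 58796 and 193282 without IM and 467477 and 473566 with it, while the ranges of GATA1 with and without IM overlapped. In KBM5 the sum was 19857 and 20016 without IM, and 2430 and 1797 with it, nearly all of it TFRC. All 8 measured granulocytic and monocytic markers (of 10) were above background on at least 1 KBM5 array, and 2, LYZ and SPI1, on at least 1 K562 array. Their sum in KBM5 was 66491 and 133224 without IM, and 346586 and 321867 with it, and in K562 it lay between 1701 and 2985. LYZ alone, the lysozyme gene, went from 12342 and 31218 to 254951 and 185905 in KBM5, while PRTN3 had 25245 and 44586 without IM and 21917 and 27502 with it. MPO had 65.8 in the KBM5 control and 35.9 after IM, both below background. It had 11442 after OR21 and 5282.5 after the combination. CEBPE was above background on the KBM5 OR21 array alone, at 241. All 6 megakaryocytic markers were at background. Of the markers of other tissues and of lymphocytes, those above background on at least 1 array were CD79A in KBM5, EPCAM and KRT19 in K562 and COL1A2 in both. The part of these shifts in the results below was not tested, and in such bulk RNA fewer cells of a type and less RNA per cell cannot be told apart.

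Fewer of the 10 genes were above background with IM than without. In K562, 5 of 10 were above it in the control and 5 after OR21, against 1 after IM and 0 after the combination. In KBM5 the counts were 3 and 4 without IM, and 0 and 1 with it. Over all genes, the share above background was 33.2% to 40.0% on the 4 arrays without IM and 34.4% to 38.2% on the 4 with it. Over the 8 arrays, 7 genes were above background at least once, and none on all 8. DUSP4, DUSP5 and SPRY4 were never above it.

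**Figure D1:**
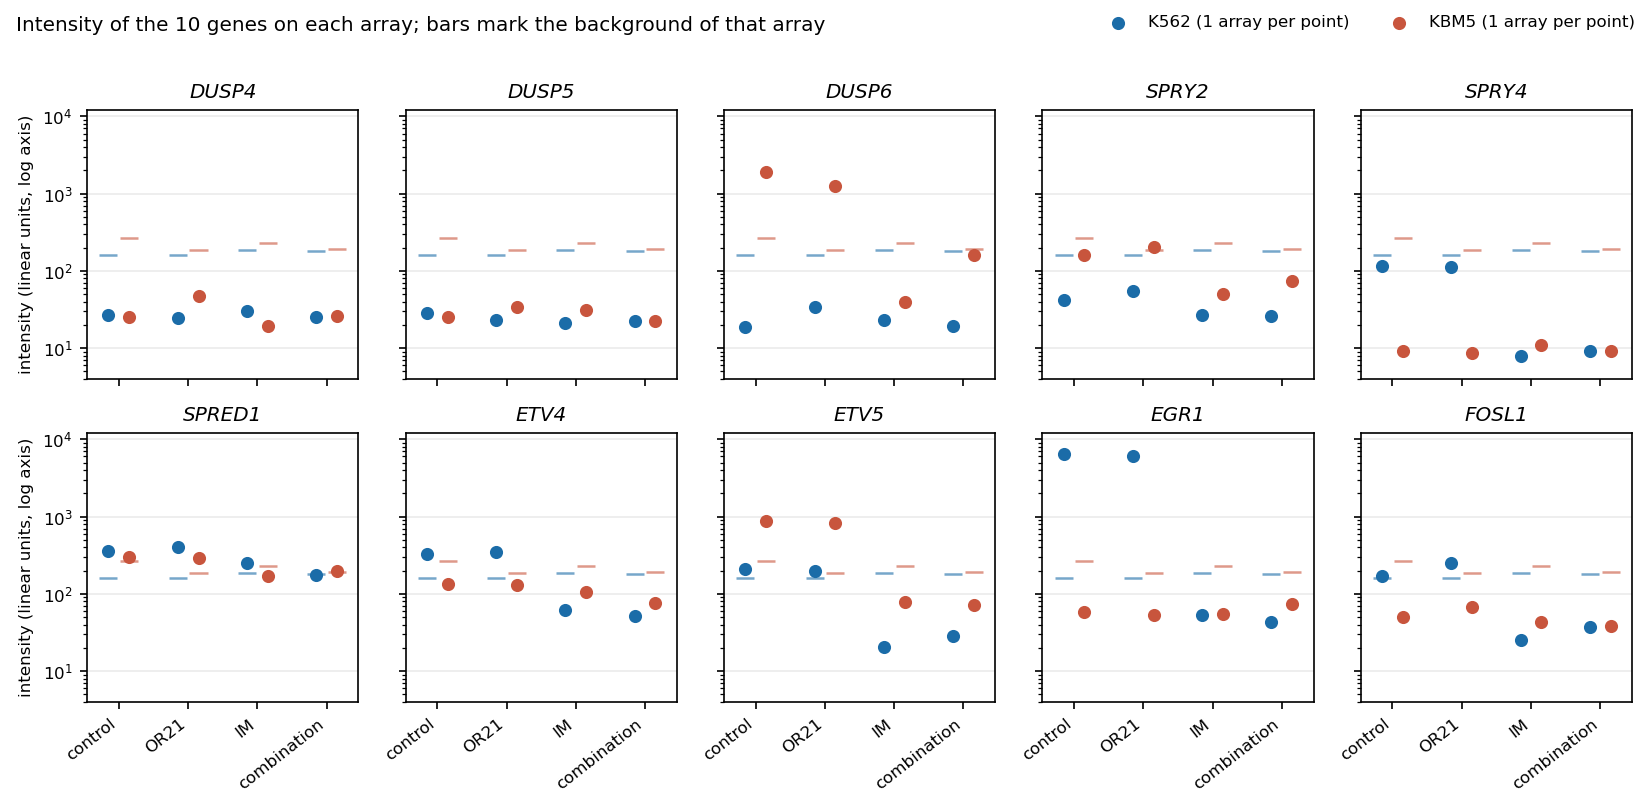
Intensity (log scale) of each of the 10 genes on each of the 8 arrays, in the order control, OR21, IM and combination, with K562 and KBM5 in different colours and the background of each array (95th percentile of its negative controls) as a dash. EGR1 in K562 drops from 6394 and 6167 to 54.0 and 43.1, DUSP6 in KBM5 from 1925 and 1265 to 39.2 and 162, and ETV5 falls in both lines.

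In K562, 7 of the 10 genes were called lower with IM and none higher. Over all genes, 8.05% were called lower and 5.34% higher, 13.4% in all. EGR1, the early response zinc finger factor, fell furthest, by at least 34.2-fold, and of all 17687 genes none had a lower log2 difference. The ETS factors ETV4 and ETV5, the AP-1 subunit FOSL1 and the inhibitors SPRY4, SPRY2 and SPRED1 were the others called lower. Of these 7, SPRY4 and SPRY2 were at background on all 4 K562 arrays, so the size of their difference is not a measured fall, and 5 were above it without IM. The 3 phosphatases were also at background on all 4. The median log2 difference of the 10 genes was -1.73, against 0.07 over all genes.

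EGR1 had an intensity of 6394 in the K562 control and 6167 after OR21, and 54.0 after IM and 43.1 after the combination. The arrays without IM were far above background and those with IM were below it, with no overlap. The log2 difference was -7.02 ± 0.25 (SE), with an adjusted p of 7.17e-07.

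Supplied RefSeq promoter windows (GRCh38.p14) covered 5 of the 10 genes: EGR1, SPRY4, DUSP6, SPRY2 (3 windows) and SPRED1. The 250 bases before the start are shown for EGR1 and SPRY4, which had the lowest IM differences of the 10 in K562. EGR1 lies at chr5:138465229-138465478 on the plus strand and SPRY4 at chr5:142324248-142324497 on the minus strand, both written 5′ to 3′ along the gene. Capitals mark matches to the motifs searched on both strands: the serum response element, CCGGAA (ETS core), TGAGTCA (AP-1), TGACGTCA (cAMP response element), its core TGACG, and TTCNNNGAA (STAT).
EGR1 promoter: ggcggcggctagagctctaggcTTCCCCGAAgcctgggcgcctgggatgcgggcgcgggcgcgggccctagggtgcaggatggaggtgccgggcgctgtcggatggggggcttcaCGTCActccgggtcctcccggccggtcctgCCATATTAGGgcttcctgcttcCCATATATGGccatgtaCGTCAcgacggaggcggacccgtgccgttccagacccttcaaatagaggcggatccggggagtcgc
SPRY4 promoter: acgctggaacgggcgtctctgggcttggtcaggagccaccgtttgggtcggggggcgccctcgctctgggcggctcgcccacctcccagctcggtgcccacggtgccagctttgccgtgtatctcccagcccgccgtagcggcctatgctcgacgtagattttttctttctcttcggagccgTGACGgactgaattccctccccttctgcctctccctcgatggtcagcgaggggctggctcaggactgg
The EGR1 window held 2 serum response elements, the sites of SRF and its ternary complex partners, at 105 and 83 bases before the start. It was the only 1 of the 7 windows of these genes with any. Of all 35116 windows, 1.159% held at least 1 and 0.03132%, or 11 windows, at least 2. EGR1 also held TGACG 135 and 66 bases before the start and a STAT match at 228, and SPRY4 held TGACG at 68. TGACG occurred in 21.22% of all windows and the STAT match in 6.567%. No window of these genes held TGAGTCA (4.203% of all windows) or the full TGACGTCA (1.646%), of which TGACG is a part. A match describes the letters only, since binding was not measured.

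The ETS factors of the PEA3 family moved together in K562. ETV5 had intensities of 209 in the control and 196 after OR21, against 20.7 after IM and 28.1 after the combination. It fell by 3.07 ± 0.24 (SE) on the log2 scale (adjusted p = 6.2e-05), or at least 1.10-fold, with the background of these 4 arrays at 161 to 186. ETV4 had 324 and 348 without IM, and 61.6 and 51.2 with it. It fell by 2.58 ± 0.24 (adjusted p = 0.000152), or at least 1.83-fold. For both, the arrays without IM were above background and those with IM below it. FOSL1 had 171 in the control and 248 after OR21, and 25.5 and 37.2 with IM. Its log2 difference was -2.74 ± 0.25 (adjusted p = 0.000120), or at least 1.12-fold lower.

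Of the upstream inhibitors, SPRY4 had 117 in the K562 control and 114 after OR21, and 7.83 after IM and 9.26 after the combination. Its log2 difference was -3.76 ± 0.23 (adjusted p = 1.63e-05). All 4 values were below the 95th percentile of the negative controls, so no fold is given and the size of the difference is uncertain. The 2 arrays without IM were above the 90th percentile (84 to 120 over the 8 arrays). SPRED1, which brings the RAS inhibitor neurofibromin to the membrane, had 363 and 410 without IM, and 250.3 and 174 with it. It fell by 0.89 ± 0.26 on the log2 scale (adjusted p = 0.0455), or 1.85-fold, not exact. SPRY2 had 42.5 and 54.6 without IM, and 27.0 and 26.3 with it, all at background (log2 difference -0.85 ± 0.24, adjusted p = 0.0400).

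The calls of SPRY2 and SPRED1 in K562 each ended when any 1 K562 array was left out. For SPRY2 the adjusted p was then 0.217 (without control or without IM) or 0.449 (without OR21 or without combination), and for SPRED1 it was 0.144 or 0.559. With log2(intensity + 100) it was 0.105 for SPRY2 and 0.0913 for SPRED1, with trended and robust moderation 0.0582 for SPRY2, and with quantile normalization 0.0740 for SPRED1. Leaving out 1 K562 array also brought the number of genes called in either direction from 2368 down to 454 (control or IM) or 657 (OR21 or combination). With it gone, the other 5 of the 7 genes were still called.

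The phosphatases gave no call in K562. DUSP4, a nuclear phosphatase of ERK and its relatives, lay between 24.9 and 30.0 on the 4 K562 arrays (log2 difference 0.10 ± 0.24, adjusted p = 0.855). DUSP5, a nuclear phosphatase of ERK, lay between 21.3 and 28.9 (-0.24 ± 0.27, adjusted p = 0.650). DUSP6, its cytoplasmic counterpart, lay between 19.0 and 33.9 (-0.25 ± 0.50, adjusted p = 0.817). These values are near the medians of the negative controls, which were 17.1 to 22.3.

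**Figure D2:**
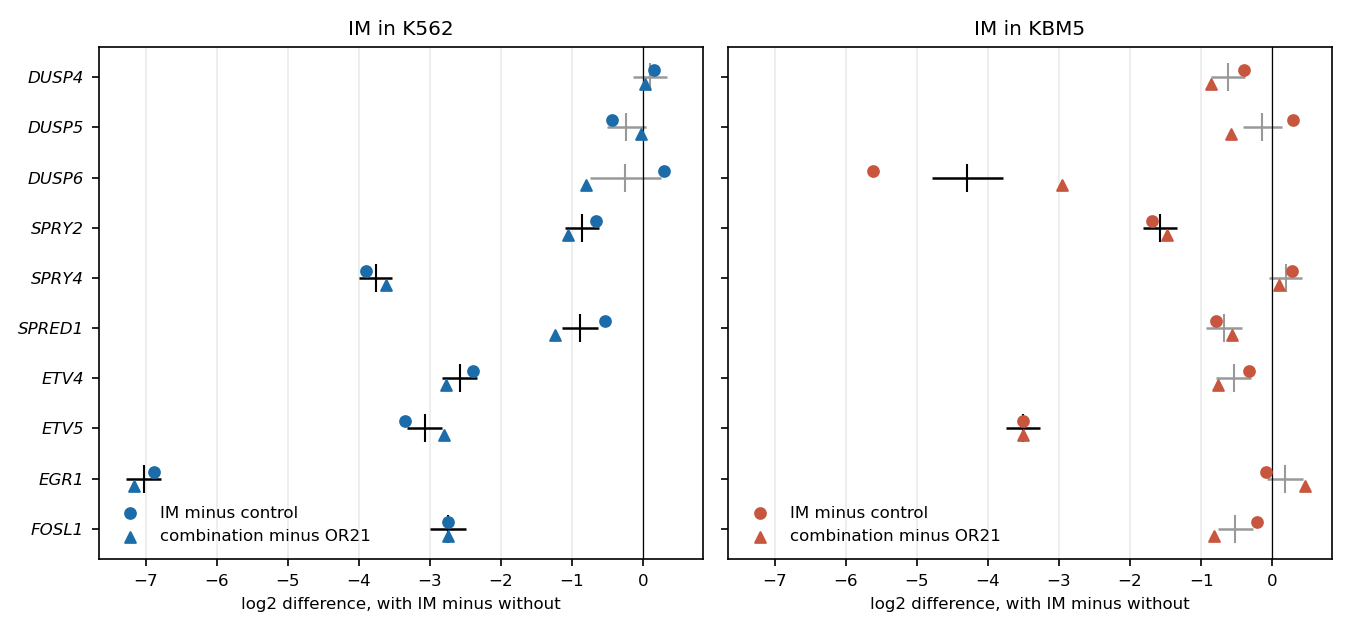
Log2 difference with IM minus without IM for each gene in each of the 2 array pairs of a line (IM minus control, and combination minus OR21), K562 in one panel and KBM5 in the other; crosses are the fitted effect with a bar of ± 1 SE, black where called and grey where not. In K562 EGR1, SPRY4, ETV5, FOSL1 and ETV4 lie left of -2 in both pairs, and in KBM5 DUSP6 and ETV5 do, with the pairs of DUSP6 apart at -5.62 and -2.96.

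In KBM5, 3 of the 10 genes, DUSP6, ETV5 and SPRY2, were called lower with IM and none higher. Over all genes, 10.6% were called lower and 10.8% higher, 21.4% in all. DUSP6, the ERK phosphatase, fell by at least 7.40-fold and ETV5 by at least 4.05-fold. The other 7 genes were not called, and 6 of them were at background on all 4 KBM5 arrays. The median log2 difference of the 10 genes was -0.58, against 0.03 over all genes.

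DUSP6 had an intensity of 1925 in the KBM5 control and 1265 after OR21, against 39.2 after IM and 162 after the combination. Its log2 difference was -4.29 ± 0.50 (SE), with an adjusted p of 0.000196 and the 22nd lowest of all genes. The arrays with IM were both below background, so the gap between 39.2 and 162, which makes the array pairs differ (-5.62 and -2.96), is not a measured level. ETV5 had 883 and 825 without IM, and 77.7 and 72.7 with it. Its array pairs were alike, at -3.51 and -3.50, and its log2 difference was -3.50 ± 0.24 (adjusted p = 1.21e-05). SPRY2 had 163 in the control and 207 after OR21, and 50.7 after IM and 74.4 after the combination. It fell by 1.58 ± 0.24 on the log2 scale (adjusted p = 0.000940), with only the OR21 array above background. These 3 calls held with each array left out in turn.

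The windows of DUSP6 and SPRY2 are shown because they fell in KBM5. DUSP6 is at chr12:89352502-89352751 and the window of SPRY2 farthest upstream at chr13:80341127-80341376, both on the minus strand of GRCh38.p14 and from RefSeq, written 5′ to 3′ along the gene with motif matches in capitals.
DUSP6 promoter: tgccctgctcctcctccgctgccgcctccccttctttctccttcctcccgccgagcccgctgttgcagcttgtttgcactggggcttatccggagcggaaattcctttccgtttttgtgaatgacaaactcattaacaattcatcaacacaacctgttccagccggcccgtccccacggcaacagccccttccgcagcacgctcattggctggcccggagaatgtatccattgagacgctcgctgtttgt
SPRY2 promoter: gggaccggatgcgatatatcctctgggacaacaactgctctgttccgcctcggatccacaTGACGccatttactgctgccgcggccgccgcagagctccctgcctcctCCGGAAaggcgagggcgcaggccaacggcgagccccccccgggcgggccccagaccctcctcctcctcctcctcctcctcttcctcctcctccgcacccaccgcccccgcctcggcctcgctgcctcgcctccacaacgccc
DUSP6 held none of the motifs searched in these 250 bases. SPRY2 held CCGGAA, found in 14.53% of all windows, 142 bases before the start and TGACG at 190.

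The other genes in KBM5 did not pass the test. SPRED1 had 299.5 and 291 without IM, and 173 and 197 with it (log2 difference -0.68 ± 0.26, adjusted p = 0.0924). When only genes above background on at least 2 arrays were tested, its adjusted p was 0.0476. ETV4 lay between 76.2 and 134 (-0.54 ± 0.24, adjusted p = 0.159) and FOSL1 between 38.4 and 68.1 (-0.52 ± 0.25, adjusted p = 0.189). EGR1 had 59.0 and 53.5 without IM, and 55.3 and 73.4 with it (0.18 ± 0.25, adjusted p = 0.699). SPRY4 lay between 8.59 and 11.1 (0.19 ± 0.23, adjusted p = 0.667). DUSP4 lay between 19.1 and 47.0 (-0.62 ± 0.24, adjusted p = 0.0995) and DUSP5 between 22.7 and 33.8 (-0.14 ± 0.27, adjusted p = 0.800). Of these 7, only SPRED1 was above background in KBM5.

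The effect of IM differed between the lines for 5 of the 10 genes, against 10.2% of all genes called in either direction (5.25% higher and 4.9% lower in KBM5 minus K562). EGR1, SPRY4, FOSL1 and ETV4 had the lower IM difference in K562, and DUSP6 had it in KBM5. The difference, KBM5 minus K562 on the log2 scale, was 7.21 ± 0.35 for EGR1 (adjusted p = 1.86e-05), 3.95 ± 0.33 for SPRY4, 2.23 ± 0.35 for FOSL1, 2.04 ± 0.35 for ETV4 and -4.04 ± 0.71 for DUSP6. Each of these 5 was at background on all arrays of the line with the smaller drop: EGR1, SPRY4, FOSL1 and ETV4 in KBM5 and DUSP6 in K562. By that background a fall could not have been measured there, and SPRY4 was at background in K562 too. At the 90th percentile of the negative controls, ETV4 in KBM5 was above background without IM (134 and 129) and below it with IM. For DUSP6 the adjusted p was 0.0056, 0.0555 without the K562 control or without the K562 IM array, and 0.0726 with log2(intensity + 100). For ETV4 it was 0.0047, and 0.0613 without the K562 OR21 or without the K562 combination array.

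The other genes gave no call of a difference. For ETV5 the difference was -0.43 on the log2 scale (95% interval -1.20 to 0.33, adjusted p = 0.520). In both lines ETV5 was above background without IM and below it with IM. Its falls are thus bounds, and the size of their difference is uncertain. For SPRED1, above background on 3 arrays of each line, the difference was 0.21 (-0.59 to 1.01, adjusted p = 0.798). For SPRY2 it was -0.72 (-1.47 to 0.03, adjusted p = 0.234). With log2(intensity + 100) the difference was called for ETV5 (-1.16, adjusted p = 0.0237) and for SPRY2 (-0.58, adjusted p = 0.0455).

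**Figure D3:**
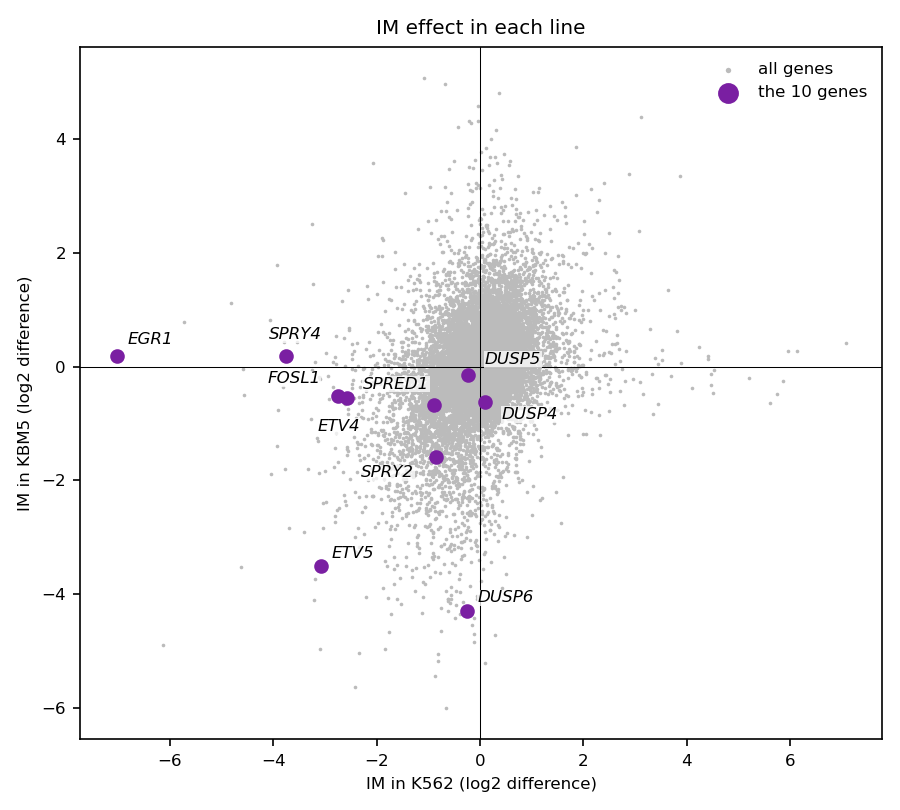
Log2 difference with IM in K562 (horizontal) against KBM5 (vertical) for all 17687 genes (grey) and the 10 genes (purple, named). EGR1 and SPRY4 lie far left at about no difference in KBM5, DUSP6 lies low at about no difference in K562, and ETV5 is low on both axes at -3.07 and -3.50.

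ETV5 was above background without IM and below it with IM in both lines, so its fall has only a lower bound in each. With the lines as repeats of each other (limma, line plus treatment), ETV5 fell with IM, with a log2 difference of -3.29 ± 0.19 (adjusted p = 0.00463), or at least 2.11-fold lower. SPRY2 was also called lower (-1.22 ± 0.23, adjusted p = 0.0278). It was above background on the KBM5 OR21 array alone, so the size of its difference is not a measured fall. ETV5 and SPRY2 were 2 of the 10 genes, against 4.87% of all genes called lower and 7.63% in either direction. All 10 had a mean difference below 0, with a median of -1.60 against 0.06 over all genes. EGR1, which was above background in K562 alone, had -3.42 ± 1.40 (adjusted p = 0.197). The call of SPRY2 ended without any 1 of 7 arrays, all but K562 IM, with adjusted p from 0.0587 to 0.128.

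Without regard to treatment, 3 of the 10 genes were higher in KBM5 than in K562, against 15.0% of all genes called higher and 17.0% called lower (32.0% in all). DUSP6 was higher by 3.92 ± 0.88 on the log2 scale (adjusted p = 0.0140). Its KBM5 values were 1925 and 1265 without IM, and 39.2 and 162 with it, where it was below background. In K562 it was at background throughout, so no fold is given. ETV5 was 3.62-fold higher, not exact (1.86 ± 0.19, adjusted p = 0.000545), and SPRY2 was higher by 1.57 ± 0.23 on the log2 scale (adjusted p = 0.00218). SPRY2 was above background on the KBM5 OR21 array alone, so no fold is given for it. In each line ETV5 was above background without IM alone. The adjusted p of DUSP6 was 0.0558 without the K562 OR21 or without the KBM5 OR21 array. EGR1 was bright in K562 without IM alone, and its line difference over the 4 pairs was -3.20 ± 1.40 (95% interval -6.53 to 0.13, adjusted p = 0.136).

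The OR21 effect, the mean of OR21 minus control and combination minus IM, called none of the 10 genes in either line. Over all genes it called 0.0905% in K562 and 0.543% in KBM5. In K562 the log2 differences ran from -0.19 for EGR1 to 0.54 for FOSL1 (95% interval -0.01 to 1.09), with 0 of the 10 and 863 of all genes at an unadjusted p under 0.05. FOSL1 was 248 with OR21 against 171 in the control, where background was 161. It was 37.2 in the combination against 25.5 with IM, both below background. In KBM5, 1 of the 10 and 2220 of all genes had an unadjusted p under 0.05: DUSP4, at 47.0 with OR21 against 25.1 in the control, all at background (0.67 ± 0.24, adjusted p = 0.299).

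DUSP6 in KBM5 went opposite ways in its OR21 pairs, from 1925 to 1265 without IM and from 39.2 to 162 with it. Its OR21 difference was 0.72 ± 0.50 (adjusted p = 0.606). Without the KBM5 control or without the KBM5 OR21 array it was 2.05 (adjusted p = 0.0427), a value that rests on 39.2 and 162 alone, both below background.

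The combination was set against control and against IM with the lines as repeats. Against control, ETV5 was the 1 gene called of the 10, lower by at least 2.29-fold (log2 difference -3.25 ± 0.27, adjusted p = 0.0409), where 0.198% of all genes were called in either direction and 0.136% lower. This call ended without any 1 of the 8 arrays, with adjusted p from 0.117 to 0.279. Against IM, 0 of the 10 genes and 0.0% of all genes were called by limma. At an unadjusted p under 0.05 there were 605 of all genes and 0 of the 10. The differences of the combination from IM ran from -0.38 for ETV4 (95% interval -1.81 to 1.05) to 0.89 for DUSP6 (-2.06 to 3.84). For ETV5 it was 0.17 (-0.48 to 0.83) and for EGR1 0.04 (-4.67 to 4.75), so a difference of several fold in EGR1 could not be seen here. The OR21 by IM interaction also had 0 of the 10 and 0.0% of all genes called, with 274 of all and 0 of the 10 at an unadjusted p under 0.05. Its values ran from -0.40 for ETV4 to 0.78 for DUSP6. In both of these comparisons each of the 10 values turned sign with at least 1 array left out, ETV4 to 0.38 and DUSP6 to -1.23 against IM, so their directions are not settled.

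Other genes of the pathway were followed as 4 lists. IM and its line difference called members of each, and OR21 called none in either line. The list of the RAS to ERK cascade had 19 genes with values, and other genes of the cascade were not analysed here. In K562, 2 of the 19 were higher and 1 lower with IM (5.34% and 8.05% of all genes), and in KBM5 6 were higher and none lower (10.8% and 10.6% of all genes). The adaptor GAB1 rose 7.10-fold in K562, from 345 and 677 to 3656 and 3220 (log2 difference 2.83 ± 0.34, adjusted p = 0.000533). CBL, the ubiquitin ligase that turns off receptors and kinases, fell in K562 and rose in KBM5 (-0.98 and 1.24; adjusted p of the difference 0.00373). SOS2, which loads RAS with GTP, rose 3.89-fold in KBM5, not exact (log2 difference 1.96). The adaptor GAB2, at background there without IM, rose by at least 1.09-fold (log2 difference 1.17). The list's median was -0.25 in K562 and 0.57 in KBM5.

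Of the 16 other feedback regulators, all measured and 7 at background on all arrays, 1 was higher and 3 were lower with IM in K562, and 3 were higher and 2 lower in KBM5, where 13.4% and 21.4% of all genes were called in either direction. Of the 3 called higher in KBM5, PHLDA1 was at background on all arrays and DUSP1 on all KBM5 arrays. SPRED2, a relative of SPRED1, fell in both lines, with log2 differences of -1.68 in K562 and -1.28 in KBM5. In K562 it had 548 and 540.4 without IM, and 187 and 155 with it, and in KBM5 534 and 634 against 192 and 298. SPRY1, a relative of SPRY2, fell in KBM5 from 689 and 938 to 116 and 221 (-2.33 ± 0.27, adjusted p = 0.000178). DUSP10, a phosphatase of p38 and JNK more than of ERK, rose there by at least 2.95-fold. PEA15, which holds ERK in the cytoplasm, fell 2.95-fold in K562. The medians of this list were -0.23 in K562 and -0.30 in KBM5.

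Of the 32 other early response and ERK output genes, 30 were measured (not EGR2 or BTG2) and 12 were at background on all arrays. In K562, 1 was higher and 9 were lower with IM (5.34% and 8.05% of all genes), and in KBM5 7 were higher and 2 lower (10.8% and 10.6% of all genes). Among these calls, ATF3 (lower in K562) and KLF4 (higher in KBM5) were at background on all arrays. For 9 genes the difference between lines was called, against 10.2% of all genes, and in all 9 the IM difference was higher in KBM5. Of the 9, FOS, FOSL2 and JUNB never rose above background in K562, nor did ETV1, CCND1 and JUN in KBM5. For these genes a fall in that line could not have been measured. CCND1, the G1 cyclin, fell by at least 2.43-fold in K562. It was also called lower in KBM5 (log2 difference -1.39), where it was at background, so no fold is given. ETV1, the third PEA3 factor beside ETV4 and ETV5, fell in K562 from 406 and 255 to 36.1 and 34.2, or at least 1.75-fold. IER2 fell 6.13-fold in K562 and had a log2 difference of 0.01 in KBM5 (adjusted p = 0.987). ZFP36, which speeds the decay of short-lived messages, rose 8.87-fold in KBM5, from 591 and 450 to 2829 and 7402. The medians were -0.39 in K562 and 0.26 in KBM5.

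The AP-1 relatives of FOSL1 and the gene MYC were picked from this list after their values were seen. FOSL2 rose in KBM5 with IM, from 989 and 1043 to 4875 and 3880 (log2 difference 2.10 ± 0.27, adjusted p = 0.000383). FOS rose there from 114 and 79.4 to 472 and 306 (2.00 ± 0.23, adjusted p = 0.000177), and JUNB from 165 and 141 to 317 and 429 (1.27 ± 0.25, adjusted p = 0.00479). For all 3 the difference between lines was called, but none of the 3 rose above background on any K562 array. A fall with IM could not have been measured there. The other AP-1 genes of the list were JUND, JUN and FOSB. JUND fell in K562 (-1.26, adjusted p = 0.0110) and had -0.61 in KBM5 (adjusted p = 0.143). JUN, above background on 1 array, was called lower in K562 (-1.39, adjusted p = 0.00888) and had 0.81 in KBM5 (adjusted p = 0.0635), and FOSB was at background on all 8 arrays. MYC fell in both lines, from 12058 and 11202 to 1918 and 2768 in K562 and from 20650 and 15088 to 4122 and 3178 in KBM5, with log2 differences of -2.33 and -2.29.

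All 12 ternary complex and ETS factors were measured. In K562, 1 was higher and 5 were lower with IM (5.34% and 8.05% of all genes), and in KBM5 5 were higher and none lower (10.8% and 10.6% of all genes). The 1 called higher in K562, ETS1, was at background on all 8 arrays. ETS2 fell 3.72-fold in K562, from 974 and 1394 to 265 and 370.0, and rose 4.77-fold in KBM5, from 3659 and 2687 to 19185 and 11685. The difference between lines was 4.15 ± 0.33 (adjusted p = 0.000113). SPI1, the myeloid factor PU.1 and also among the granulocytic and monocytic markers above, fell by at least 1.87-fold in K562 and rose 2.03-fold in KBM5. ERF, a repressor that ERK keeps out of the nucleus, fell by at least 1.51-fold in K562, and ELF1 rose 2.70-fold in KBM5. The medians were -0.32 in K562 and 0.57 in KBM5.

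**Figure D4:**
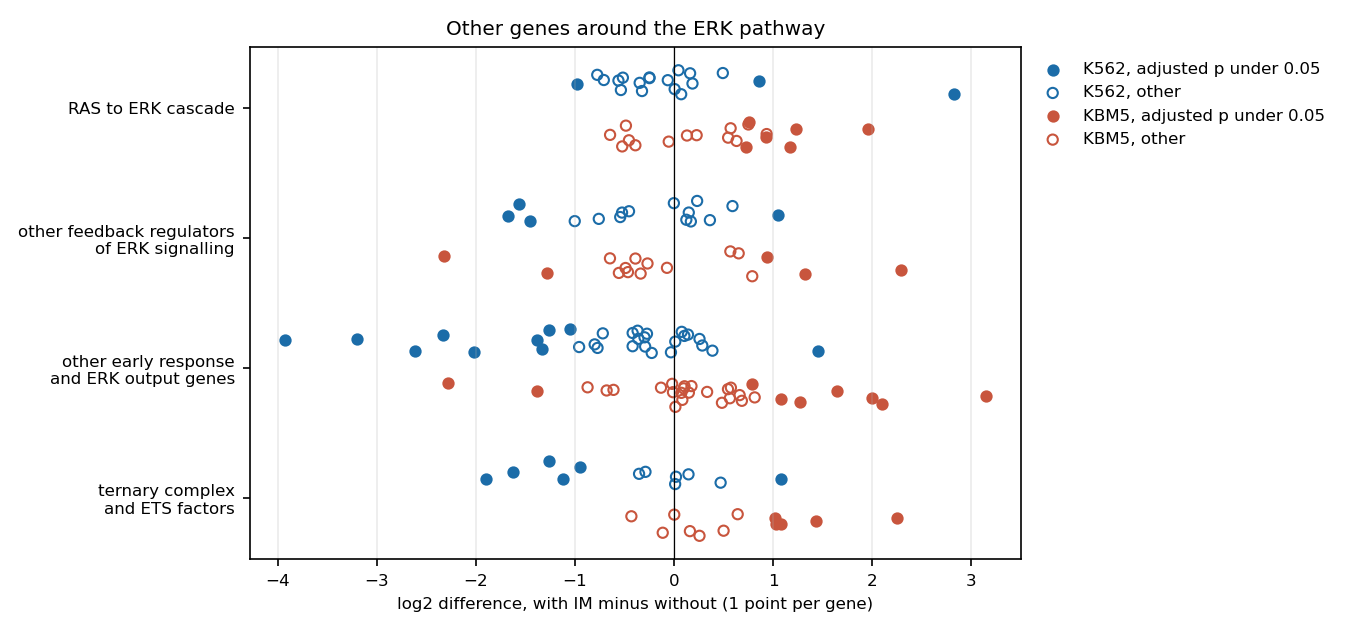
Log2 difference with IM minus without IM for each measured gene of the 4 other lists of the pathway, 1 point per gene, K562 above KBM5 in each list; filled points were called and open points were not, and the vertical scatter within a row has no meaning. Among the ternary complex and ETS factors, 5 filled points lie below 0 in K562 and 5 above 0 in KBM5.

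The genes with the most similar profile were sought for the 6 of the 10 above background on at least 2 arrays. Similarity was the root mean square difference of log2 profiles over the 8 arrays, each line centred on its own mean, among 8011 genes. DUSP6, ETV4, EGR1 and FOSL1 were above background on 2 of the 8 arrays, ETV5 on 4 and SPRED1 on 6. The rest of each profile was values at background, as for DUSP6 in all of K562. ETV5 was nearest to LRP8 (0.23 on the log2 scale) and POLR3G (0.28), and DUSP6 to CHAF1B (0.26) and CDC6 (0.31). CDC6, a replication licensing factor, had 1475 and 1485 without IM in KBM5, and 48.8 and 107 with it, while in K562 it lay between 2217 and 3917. SPRED1 was nearest to SRF (0.088) and DDX20 (0.10). ETV4 was nearest to TIMM8A (0.21) and TMEM177 (0.22), and FOSL1 to TIMM8A (0.16) and YDJC (0.18). The closest to EGR1, CD69 and FCGR2A, differed from it by 0.57 and 0.95. These are larger differences, but the centred profile of EGR1 also had the widest span of the 6, at 7.21.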

How the data were processed

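The authors deposited 1 linear intensity for each of 24351 probe sets on 8 arrays; biotin labelling is per the labels' protocols. Software, summarization and normalization were not given in the sources used here. Of the probe sets, 17709 carried 1 gene symbol in the supplied annotation and 0 carried several. Where a gene had several probe sets (20 genes), its brightest by mean was taken, and 3739 transcript clusters without a name were left out. From these values log2(intensity) was taken with no further normalization and fitted in limma 3.58.1 (R 4.3.3). The model of both lines had line and treatment (3 residual and 3.765 prior degrees of freedom). The model per line had a baseline, an OR21 term and an IM term for each line (2 residual and 8.309 prior). The 10 genes, the lists, the tests and the alternatives were chosen with earlier results of these data known. All 10 genes are named. Of each list, up to 4 called genes with the largest IM difference in either line are named, with the AP-1 genes FOS, FOSB, FOSL2, JUN, JUNB and JUND, and MYC, added. Alternatives were quantile normalization, trended and robust moderation, log2(intensity + 100), a filter on dim genes, the 90th and 99th percentile as background, a common OR21 by IM term, the line left out, and each array left out.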

Additional observations from a re-analysis of the deposited data

Results flagged for a closer look

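For 5 of the 10 genes, the IM effect differed between the lines by the test of the difference itself (limma, KBM5 minus K562 on the log2 scale). The differences were 7.21 for EGR1, 3.95 for SPRY4, 2.23 for FOSL1, 2.04 for ETV4 and -4.04 for DUSP6. Each of the 5 was at background on all arrays of the line with the smaller drop. With 1 array in each group, no single array could be set against others of its group.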

How the results depend on the processing

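In K562, the calls of EGR1, SPRY4, ETV5, ETV4 and FOSL1 held in every alternative run for them, as did those of DUSP6, ETV5 and SPRY2 in KBM5 and those of EGR1, SPRY4 and FOSL1 between lines. The filter on dim genes left out SPRY2, SPRY4, DUSP4 and DUSP5. The replicate numbers pair nothing further, since each group had 1 array. Without the block for cell line, IM in both lines called 0 of the 10 genes (2 with it) and 0 of all (1349 with it), and the combination against control 0 and 0 (1 and 35 with it). With log2(intensity + 100), IM in both lines called 0 of the 10, the combination against control 0 of the 10 and 73 of all, KBM5 against K562 1 (3 before), and OR21 0 genes in K562 and 1 in KBM5 (16 and 96 before). Under the filter, the combination against control called 0 of the 10 and 1 gene in all, and under quantile normalization 20. Trended and robust moderation gave 27 OR21 genes in K562 and 243 in KBM5, and a common OR21 by IM term 32 and 149. At the 99th percentile 2 of the 10 genes were above background, and at the 90th 8. Under quantile normalization DUSP4 turned to -0.060 for IM in K562 and to -0.027 for the lines. With 1 array left out in turn, calls among the 10 and among all genes ranged as follows: IM in K562 5 to 7 and 454 to 3201, in KBM5 3 and 2722 to 3245, their difference 4 to 5 and 611 to 1804, both lines 1 to 2 and 115 to 557. For OR21 they were 0 and 9 to 31 in K562, 0 to 1 and 54 to 157 in KBM5, for the combination against control 0 and 0 to 2, and between lines 2 to 3 and 4303 to 4976. With a K562 or KBM5 array gone, each drug effect of that line rested on 1 array pair, and its spread was assumed to be that of the other line. Values that turned sign were not called as reported. They were, for IM, DUSP6 in K562 (-0.80 to 0.30), DUSP5 and EGR1 in KBM5 (-0.57 to 0.29, -0.093 to 0.46), DUSP5 and SPRED1 in the difference (-0.34 to 0.53, -0.14 to 0.56) and DUSP4 in both lines (-0.55 to 0.026). For the combination against control these were DUSP4 (-0.12 to 0.084), DUSP5 (-0.53 to 0.030) and DUSP6 (-3.59 to 0.062), for OR21 in KBM5 DUSP6 (-0.61 to 2.05), and between lines DUSP4 (-0.24 to 0.28) and ETV4 (-0.71 to 0.031). Among the other values of the OR21 effects, the combination against IM and the interaction, 67 of 466 turned sign over all alternatives, and none was called. Dim signal limits most values: at background a gene has only a bound.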
